A study of Homo sapiens with 49 samples.

Results

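HOX genes encode homeodomain transcription factors that give cells their position along the body axis. In humans they lie in the HOXA, HOXB, HOXC and HOXD clusters, and genes with the same number in different clusters are paralogs that descend from 1 ancestral gene. They are known to be switched on in order along the cluster during development, and adult tissues, among them the uterus and the breast, keep the set that belongs to their position. Silent HOX genes are a well known target of Polycomb repressors, whose mark is H3K27me3, while H3K4me3 lies at the start sites of active or poised genes. The members described here were all protein-coding genes of the hg19 (GRCh37) annotation whose symbol is HOXA, HOXB, HOXC or HOXD followed by a number, which gave 39 of 20163 protein-coding genes. No measured value entered that choice.

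ChIP-seq, which finds the genome sites held by a protein or mark, had been made in Ishikawa cells, an endometrial adenocarcinoma line, and in T-47D cells, a breast carcinoma line that is ductal in origin. The cells were grown in hormone-depleted medium and then given the estrogen estradiol (E2) at 10 nM or the DMSO vehicle. Exposure lasted 1 h where a protein was precipitated and 8 h where a histone mark was. Of 49 samples, 45 had a peak list and 4 were inputs without one. The 21 Ishikawa lists and 24 T-47D lists covered H3K4me3, H3K4me1, the mark labelled H3K27me3, TAF1, JUN, LSD1, MAX, MYC and RARA under both treatments, and SIN3A in hormone-stripped and in full medium. Ishikawa also had H3K36me3, in a sample whose title names no treatment or medium. T-47D had RNA polymerase II (RNAPII) in 2 replicates per treatment. RNAPII was the only target with replicates, and nothing states that its replicates were separate cultures. For all other targets each group was 1 library, so counts and values stand side by side with no test. Lists held from 2 to 46282 peaks, read depth was unknown, and a short list leaves most genes without a peak. As a check of the cell line labels, an H3K4me3 start-site peak under DMSO was found at 8 of 10 luminal breast genes in T-47D and 6 of 10 in Ishikawa, with GATA3 and SPDEF in T-47D alone. Of 8 endometrial or Müllerian genes, 5 had one in Ishikawa and 4 in T-47D. PAX8 and EMX2 had it in Ishikawa alone and PAX2 in T-47D alone. Under E2 the luminal counts were 8 in T-47D and 7 in Ishikawa, with GATA3 then in both lines. The endometrial or Müllerian counts were 7 in Ishikawa and 3 in T-47D, with PAX2 then in both.

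The HOXA cluster had 11 members at chr7:27132612-27239710, HOXB had 10 at chr17:46605888-46806112, HOXC had 9 at chr12:54332615-54449814 and HOXD had 9 at chr2:176957449-177055635. HOXA and HOXB are read from the minus strand and HOXC and HOXD from the plus strand. The members had 77 start sites of protein-coding transcripts, and 19 members had more than 1. A gene was counted for a target when a peak overlapped the window of 250 bp on either side of any of its start sites. No windows of different members overlapped, although a wide peak can reach into 2 windows. HOX genes are short, with a median length of 4.22 kb against 27.2 kb over all protein-coding genes.

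At start sites, 3 of the 4 libraries labelled H3K27me3 lay mostly at genes that also had H3K4me3 and TAF1 or RNAPII. Whether they were mislabelled was not tested. In Ishikawa under DMSO, 436 of the 444 protein-coding genes with a start-site peak in that library also had TAF1, a subunit of the initiation complex TFIID, which was 98.2%, and 98.4% also had H3K4me3. Under E2 the shares were 96.2% with TAF1 and 99.7% with H3K4me3. In T-47D under DMSO 99.9% of the genes with a peak also had RNAPII in replicate 1, and 99.1% had H3K4me3, while 62.2% had TAF1, whose list was short in that line. Over all protein-coding genes in Ishikawa, TAF1 was found at 58.7% under DMSO and 54.6% under E2, and H3K4me3 at 66.2% and 67.1%. In T-47D under DMSO, RNAPII replicate 1 was found at 63.0% of all genes, H3K4me3 at 60.7% and TAF1 at 22.5%. Other libraries overlapped TAF1 to a like extent, at 95.3% for SIN3A in stripped medium and 97.6% for JUN under E2 in Ishikawa. The Ishikawa library under DMSO held 2199 peaks in all, and the shares cover its start-site peaks alone. The T-47D library under E2 held 107 peaks and none of them lay at a start site, so it could not be read this way. No HOX gene that lacked H3K4me3 in the same line and treatment had a start-site peak in them. All 4 are called libraries labelled H3K27me3 below, and no HOX gene is called silenced from them.

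HOX start sites were searched for the E-box, the 6 bases CACGTG, which is the site of MAX and MYC. In the 250 bases upstream of the canonical start site (that of the Ensembl canonical transcript), 18 of 39 HOX genes held it, 46.2%, against 7.86% of all protein-coding genes. It was found in 4 members of HOXA, 4 of HOXB, 4 of HOXC and 6 of HOXD. The 20 matches lay from 29 to 200 bases upstream, with a median of 84. The sequences below were read from the GRCh37 genome on the strand of the gene, with the E-box in capitals. The first are the stretches whose flanks were most alike between paralogs. HOXA5 (chr7:27183368-27183397) and HOXB5 (chr17:46671201-46671230) had 23 of 30 bases in common, and HOXC9 (chr12:54393824-54393853) and HOXD9 (chr2:176987390-176987419) had 22 of 30.
HOXA5: ggacaacaaaagCACGTGattcgaagtcgt
HOXB5: ggtcaacaaaagCACGTGattccctaacgc
HOXC9: ggtaaatacgatCACGTGggggccggggag
HOXD9: ggtaaatatgatCACGTGggccgcgcgacc
All stretches share the 6 bases of the E-box, and over the 177 pairs of stretches from genes of different paralog number the median was 13 of 30 bases in common, with a maximum of 20. Over the 11 pairs with the same paralog number the median was 15. Beside them stand HOXA4 (chr7:27170559-27170588), where MAX also had a peak, and HOXA9 (chr7:27205210-27205239) and HOXD10 (chr2:176981388-176981417), which had no start-site peak in any list.
HOXA4: gtgggggcgctgCACGTGgggcacggggcg
HOXA9: ctgctggacgggCACGTGacgcgcacggcc
HOXD10: caggctctggagCACGTGacccgagaggag
Members with the E-box were thus both marked and unmarked. Of the 18 members that held it, 15 had H3K4me3 in Ishikawa and 6 had it in T-47D, under DMSO. Of the 21 members without it, 14 and 7 had H3K4me3.

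MAX, the partner through which MYC binds E-boxes, had a start-site peak at HOXA4, HOXA5 and HOXD9 in Ishikawa under DMSO and at HOXC13 in T-47D under DMSO. The whole 250 bases upstream of the start site are given for a pair of them, to show the E-box in its place. They are HOXD9 at chr2:176987197-176987446 (plus strand) and HOXA5 at chr7:27183301-27183550 (minus strand).
HOXD9: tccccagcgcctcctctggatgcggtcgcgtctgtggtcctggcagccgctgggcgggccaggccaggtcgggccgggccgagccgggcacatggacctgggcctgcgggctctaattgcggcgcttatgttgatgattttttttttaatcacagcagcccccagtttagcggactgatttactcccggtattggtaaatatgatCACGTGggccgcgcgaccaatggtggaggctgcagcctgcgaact
HOXA5: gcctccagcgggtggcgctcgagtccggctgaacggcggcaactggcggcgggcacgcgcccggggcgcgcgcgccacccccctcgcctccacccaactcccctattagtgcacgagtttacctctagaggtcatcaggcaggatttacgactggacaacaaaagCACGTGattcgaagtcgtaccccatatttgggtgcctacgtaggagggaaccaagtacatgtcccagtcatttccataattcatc
Within 150 bases of the MAX summit an E-box was found at 3 of 3 HOX peaks in Ishikawa under DMSO, 1 of 1 under E2 and 1 of 1 in T-47D under DMSO. Among all start-site MAX peaks of the same lists the shares were 37%, 51.8% and 82.5%. The E-box was not confined to MAX peaks. It lay as near to the JUN summit at 5 of 10 HOX peaks in Ishikawa under E2. In T-47D it did so at 3 of 8 under DMSO and 1 of 12 under E2. Among all start-site JUN peaks of these lists the shares were 10.6%, 9.79% and 9.81%.

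Other motifs were searched in the same 250 bases on both strands. The AP-1 site (TGACTCA or TGAGTCA), which JUN and FOS bind, was found in 0 of 39 HOX genes and in 3.06% of all protein-coding genes. The TATA box (TATAAA) was found in 6 HOX genes, 15.4%, against 9.4%. Direct repeats of AGGTCA, the form of site that retinoic acid receptors bind, were found in 0 HOX genes at a spacing of 1, 2 or 5 bases, and the share over all genes was at most 0.0298%. No such repeat lay anywhere in the 4 clusters. Only exact copies were searched and they were rare over all genes, so these counts cannot tell whether HOX genes hold sites of the receptors. The median G and C content within 250 bases of the canonical start site was 58.5% over HOX genes and 64.5% over all, and the ratio of observed to expected CpG was 0.84 and 0.77.

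The clusters were used differently in the lines. H3K4me3 lay under DMSO at the start sites of 29 of 39 HOX genes in Ishikawa and 13 in T-47D, 74.4% and 33.3%, while 66.2% and 60.7% of all protein-coding genes had it. Under E2 the counts were 29 and 11, against 67.1% and 57.3% of all genes. Ishikawa lay somewhat above the background and T-47D well under it. HOXA differed most between the lines, with 9 of 11 members marked in Ishikawa and 0 in T-47D. HOXB had 8 and 5, HOXC 6 and 6, and HOXD 6 and 2. With the H3K4me3 lists shortened to the same 29081 peaks the counts stayed at 29 and 13. With the summit required inside the window they were 17 and 6, and the order of the clusters turned, since HOXA then had 2 and 0 and HOXD 6 and 1.

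**Figure D1:**
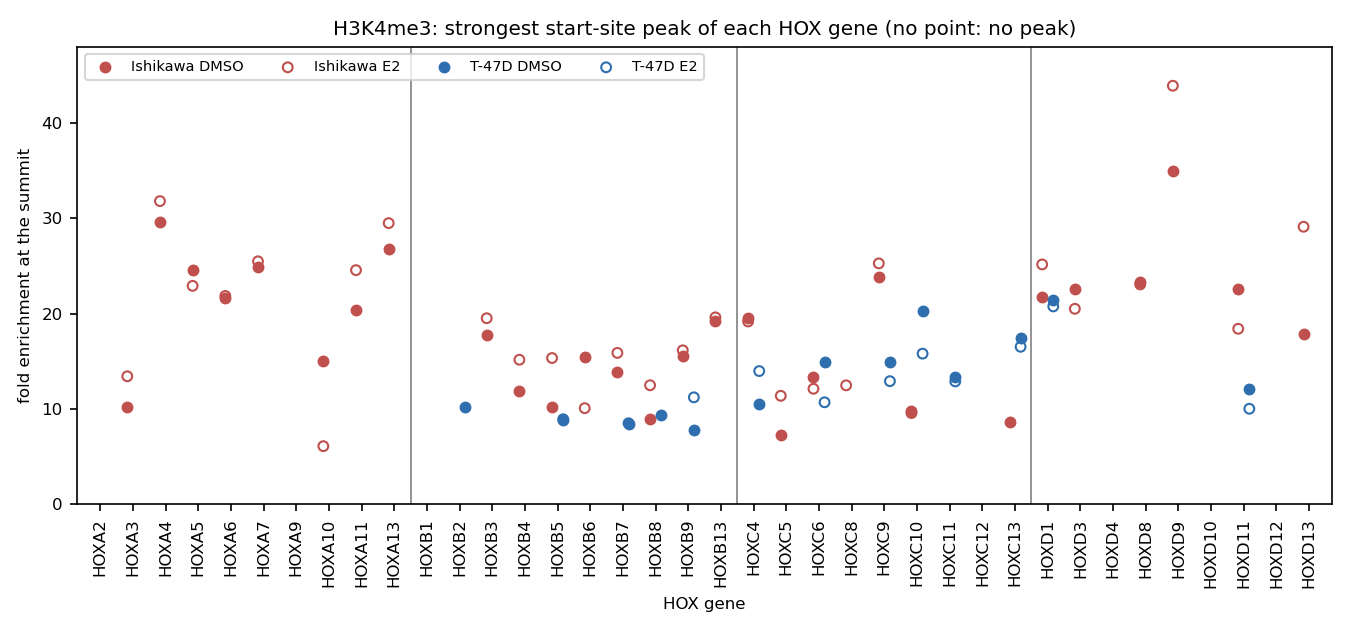
Fold enrichment (vertical axis, linear, from 0) of the strongest H3K4me3 start-site peak of each HOX gene (horizontal axis, by cluster and number, 1 member not shown), with filled points for DMSO, open points for E2, red for Ishikawa and blue for T-47D, each from 1 library. No blue point stands in HOXA, HOXC11 has blue points alone, and HOXD9 in Ishikawa reaches 43.9 under E2.

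Of the 39 members, 18 (46.2%) were marked in Ishikawa alone under DMSO, against 7.73% of all protein-coding genes, and each of the 18 was again so under E2, against 7.10%. Among them were HOXA3 to HOXA7, HOXA10, HOXA11, HOXA13, HOXB3, HOXB4, HOXB6, HOXB13, HOXC5, HOXD3, HOXD8, HOXD9 and HOXD13. In T-47D alone HOXB2 and HOXC11 were marked under DMSO, against 2.29% of all genes, and HOXC11 alone under both treatments, against 1.49%. Both lines marked 11 members, 28.2% against 58.4%. These were HOXB5, HOXB7, HOXB8, HOXB9, HOXC4, HOXC6, HOXC9, HOXC10, HOXC13, HOXD1 and HOXD11. Neither line marked 8, 20.5% against 31.5%, namely HOXA2, HOXA9, HOXB1, HOXC8, HOXC12, HOXD4, HOXD10 and HOXD12. Of these 8, HOXC8 gained a peak with E2 in Ishikawa and HOXC12 had RNAPII in 1 T-47D library. HOXA2, HOXA9, HOXB1, HOXD4, HOXD10 and HOXD12 had no start-site peak in any of the 45 lists.

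Marked members are given here by their order in the cluster. Whether they stood in runs more than the share of marked members would give was not tested. In Ishikawa HOXB3 to HOXB13 were all marked and HOXB1 and HOXB2 were not, HOXA3 to HOXA7 were marked, as were HOXA10, HOXA11 and HOXA13, and in HOXD the unmarked HOXD4, HOXD10 and HOXD12 stood between marked ones. In T-47D HOXC9 to HOXC11 were marked and HOXC8 and HOXC12 beside them were not. By paralog number, Ishikawa marked 8 of 12 members of numbers 1 to 4, 10 of 11 of numbers 5 to 8 and 11 of 16 of numbers 9 to 13. T-47D marked 3, 4 and 6 of the same groups. All 4 paralogs of number 13 and all 3 of each of the numbers 3, 5 and 6 were marked in Ishikawa, and no paralog of number 2 or 12. In T-47D no paralog number had more than 2 marked members.

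**Figure D2:**
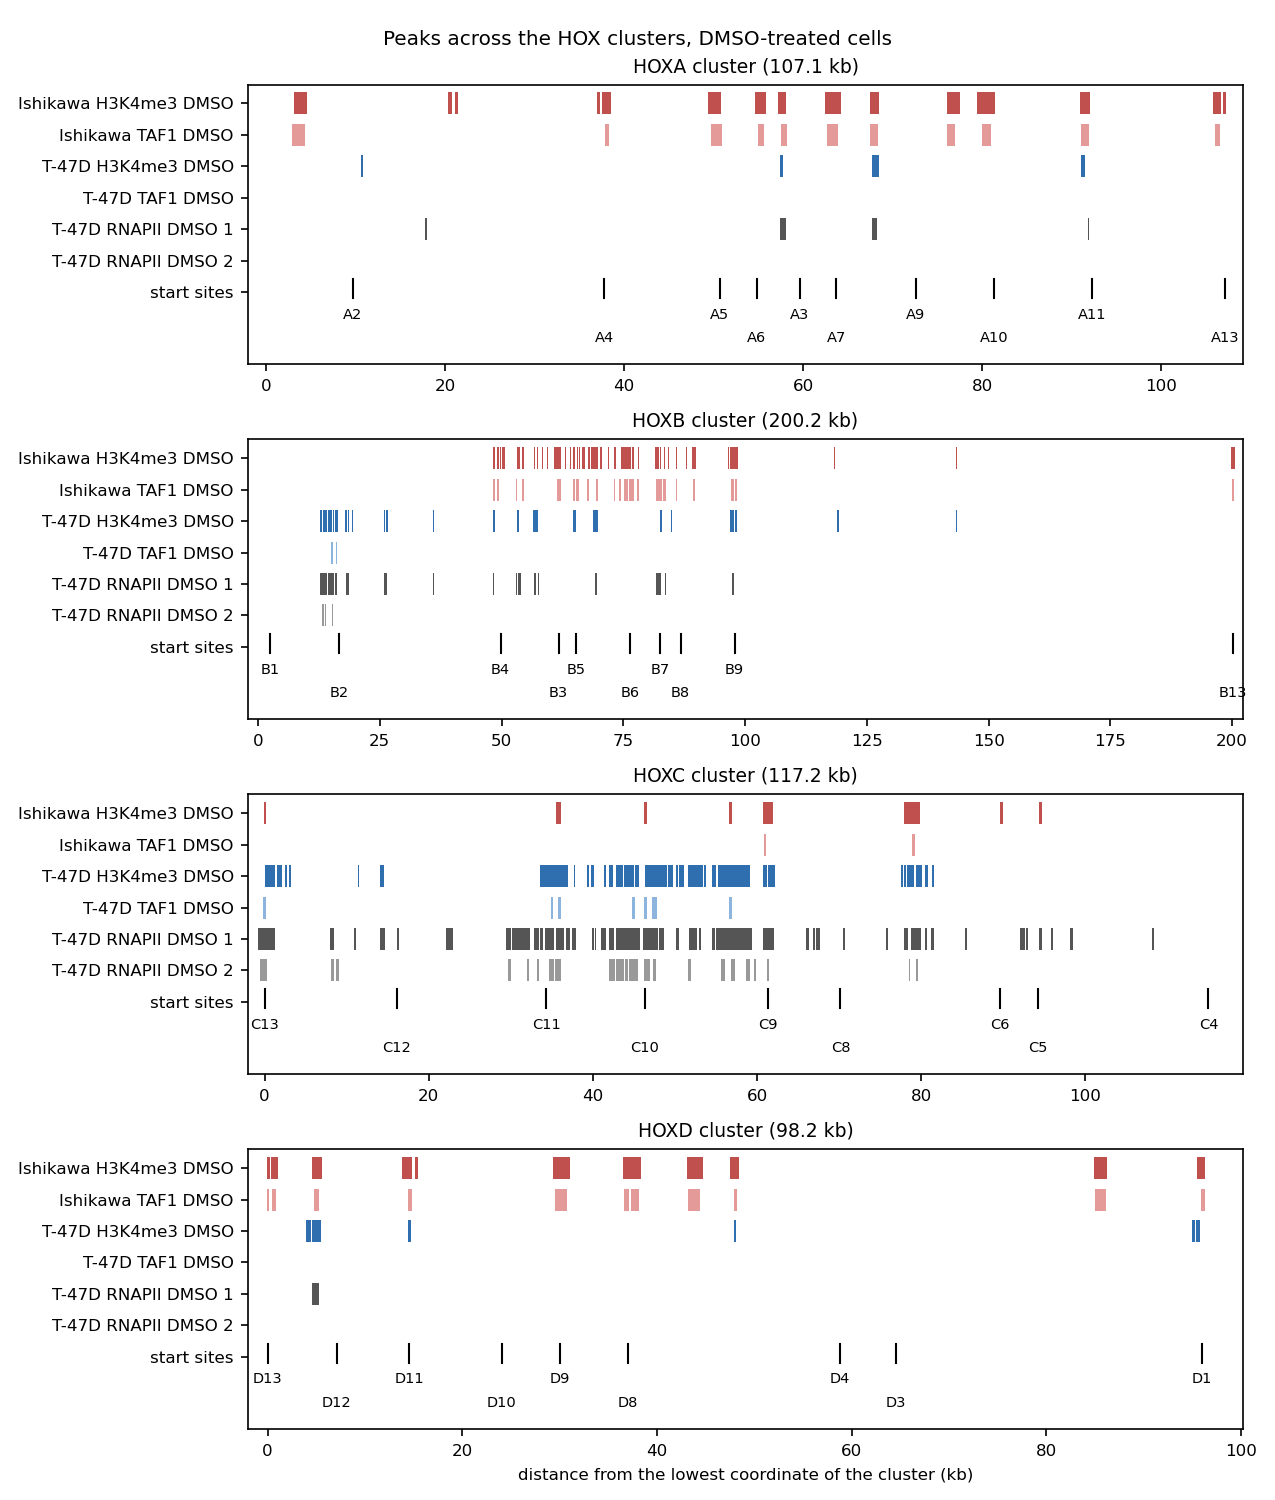
Peaks along the 4 clusters in DMSO-treated cells, as distance in kb from the lowest coordinate of the cluster (horizontal axis), with 1 row per library (bars are peaks, TAF1 in paler colours) and ticks for the canonical start sites, 1 of them not shown. Ishikawa H3K4me3 (red) is spread over HOXA, HOXB and HOXD, and T-47D H3K4me3 and RNAPII (blue, grey) are dense over HOXC13 and from HOXC11 to HOXC9.

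The length under peaks gave a like contrast in HOXA, HOXB and HOXD. In HOXC it was greater in T-47D, although the counts of marked genes were equal. H3K4me3 covered 14.3% of the HOXA cluster in DMSO-treated Ishikawa cells and 1.62% in T-47D, and 4.65% and 21.5% of HOXC. HOXB was covered to 9.17% and 5.39%, and HOXD to 11.8% and 2.74%. The HOXC marks of T-47D were wide. One peak of 3876 bp at chr12:54387853-54391728 ran over start sites of HOXC6 and HOXC9, one of 3435 bp at chr12:54366182-54369616 over HOXC11 and one of 2773 bp at chr12:54378907-54381679 over HOXC10. The HOXC10 peak stood at percentile 99.8 of that list by width, and the others were wider still. The median width of the strongest start-site peak was 3.10 kb over the 6 marked HOXC genes of T-47D, 0.39 kb over the 6 of Ishikawa and 0.73 kb over all marked genes of T-47D. Under E2 the medians were 1.70 kb, 0.494 kb and 0.695 kb. HOXC6 and HOXC9 entered the T-47D median under DMSO with the same peak. The equal number of marked HOXC genes, 6 and 6, did not hold at a fold enrichment of at least 10, where it was 3 in Ishikawa and 6 in T-47D, nor with the summit in the window, where it was 4 and 2.

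The HOXA cluster, whose genes pattern the Müllerian duct and limbs, was marked in Ishikawa at 9 members, among them HOXA3 to HOXA7, HOXA10, HOXA11 and HOXA13. HOXA4 was in the most lists of its cluster, 10, all from Ishikawa. Its fold enrichment (ChIP over background at the summit) was 29.6 under DMSO and 31.8 under E2 for H3K4me3, 29.2 and 27.4 for TAF1, and 18.4 in stripped and 11.9 in full medium for SIN3A, a corepressor scaffold. MAX had 10.2 under DMSO alone, and JUN had 9.03, LSD1 9.77 and the library labelled H3K27me3 12.7 under E2 alone. H3K4me3 and TAF1 were thus present at HOXA4 under both treatments, and SIN3A in both media. MAX, JUN, LSD1 and the library labelled H3K27me3 had a peak there in 1 treatment each. HOXA5, a gene whose loss is known in breast tumours, had H3K4me3 at 24.6 and 22.9, TAF1 at 17.2 and 9.86, SIN3A at 25.6 and 17.9 and MAX at 6.23 and 8.99, and JUN at 8.55 under E2 alone. HOXA5 was the 1 member with MAX under both treatments.

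HOXA7 had H3K4me3 at 24.9 and 25.5 and TAF1 at 23.5 and 15.4, and HOXA6 had 21.7 and 21.9 and 17.6 and 11.8. HOXA13, the gene at the 5′ end, had H3K4me3 at 26.7 and 29.5 and TAF1 at 17.9 and 14.9. Measured from its start site, where minus is upstream, the summits lay at -368 and -411 bases for H3K4me3. Those of TAF1 lay at -266 and -335. HOTTIP, a noncoding gene of the cluster, also had H3K4me3 and TAF1 at a start site in Ishikawa, and peaks do not tell the strands apart. HOXA10 and HOXA11, which are needed in the uterus, had H3K4me3 but no TAF1 in the start-site windows, while TAF1 peaks lay in the bodies of both. HOXA10 had 15.01 under DMSO and 6.07 under E2, and HOXA11 had 20.3 and 24.6. HOXA3 had the weakest H3K4me3 of the cluster under DMSO, 10.2, at an inner start site and not at the canonical one, and 13.4 under E2. HOXA9 had no peak at a start site, but 3 H3K4me3 peaks in its body covered 26.2% of it under DMSO, and 2 of them lay where HOXA10 also lies. In T-47D the cluster had 4 H3K4me3 peaks under DMSO, all outside the start-site windows of members, and their fold enrichment was at most 8.58. The noncoding gene HOXA11-AS of this cluster did have an H3K4me3 start-site peak in T-47D under DMSO, though not under E2. With windows of 1000 bp 2 HOXA genes counted as marked in T-47D.

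In HOXB, HOXB7 and HOXB9 were in the most lists, 11 each. HOXB9 had H3K4me3 at 15.6 and 16.1 in Ishikawa and 7.74 and 11.2 in T-47D under DMSO and E2. HOXB7 had 13.9 and 15.9, and 8.38 and 8.48. Both genes were higher in Ishikawa than in T-47D under each treatment, and over all marked genes the DMSO medians were also higher in Ishikawa, at 21.5 against 14.3. HOXB5 had 10.2 and 15.3 in Ishikawa and 8.77 and 8.9 in T-47D, and HOXB8 had 8.97 and 12.5 in Ishikawa and 9.35 under DMSO alone in T-47D, at a start site further into the gene. HOXB3 (17.8 and 19.5), HOXB4 (11.8 and 15.2) and HOXB6 (15.4 and 10.1) were marked in Ishikawa alone. So was HOXB13, the prostate lineage gene that stands apart from the rest of its cluster, at 19.2 and 19.6. HOXB2 was marked in T-47D alone under DMSO, at 10.2. Inside the gene, 6 H3K4me3 peaks covered 70.8% of it, and TAF1, JUN and RNAPII also had peaks there, while Ishikawa had no H3K4me3 in its body. HOXB1, a hindbrain gene, was in no list.

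HOXC was where T-47D had its active members. HOXC9 was in 17 lists, the most of all 39 genes, and it alone was active in both lines, where active means H3K4me3 and TAF1 at a start site under DMSO. Its H3K4me3 was 23.9 and 25.3 in Ishikawa and 14.9 and 12.9 in T-47D under DMSO and E2. TAF1 was 7.37 in Ishikawa under DMSO alone, and 5.5 and 6.4 in T-47D. Under DMSO it stood at percentile 10.6 of the Ishikawa list and 29.7 of the T-47D list. With a fold enrichment of at least 10 required, HOXC9 would be active in neither line. JUN was 13.9 and 26.0 in T-47D, and RNAPII was 62.5 and 10.6 in replicates 1 and 2 of DMSO, and 13.1 and 11.7 in those of E2. Ishikawa had LSD1 at 9.72 and the library labelled H3K27me3 at 12.99 under E2, and SIN3A at 11.8 in stripped medium, and T-47D had the library labelled H3K27me3 at 6.4 under DMSO. RNAPII was higher in DMSO replicate 1 over all marked genes too, with medians of 52.6 and 13.5 with DMSO and 26.5 and 16.2 with E2. TAF1 lay at the canonical start site (base 54393945) in Ishikawa and at the upstream one (base 54389293) in T-47D.

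HOXC13, known for hair and nail growth, was in 13 lists and 12 of them were from T-47D. It had H3K4me3 at 17.4 and 16.5, TAF1 at 6.22 and 6.07 and JUN at 17.8 and 28.5 under DMSO and E2 in T-47D, with MAX at 6.23 and the library labelled H3K27me3 at 10.8 under DMSO alone. RNAPII was 51.3 and 24.2 under DMSO and 33.8 and 20.7 under E2. In Ishikawa it had a single H3K4me3 peak at 8.56, under DMSO. HOXC10 had H3K4me3 at 20.3 and 15.8 in T-47D and 9.75 and 9.55 in Ishikawa, and TAF1 at 6.03 and 9.36 in T-47D alone. HOXC11 was marked in T-47D alone, at 13.4 and 12.9, with JUN at 13.1 and 23.2 and RNAPII at 82.6 in DMSO replicate 1, 31.2 in E2 replicate 1 and 28.3 in E2 replicate 2. In DMSO replicate 2 RNAPII peaks lay in its body, over 1.4 kb, and none at its start site. HOXC11 overlaps HOTAIR, a noncoding RNA read from the other strand, and peaks do not tell the strands apart. HOXC5 was marked in Ishikawa alone at 7.23 and 11.4, and HOXC4 in both lines, at 19.6 and 19.2 in Ishikawa and 10.5 and 14.0 in T-47D, at an upstream start site that lies within HOXC6. HOXC6 was marked at different start sites, the canonical one in Ishikawa at 13.3 and 12.1 and a pair of upstream ones in T-47D at 14.9 and 10.7. HOXC8 (Ishikawa H3K4me3 under E2, 12.5) and HOXC12 (T-47D RNAPII, 8.79) were in 1 list each.

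HOXD, which patterns the limb and the genital tubercle, had its strongest member in HOXD9, in 11 lists, all from Ishikawa. Its H3K4me3 was 34.97 and 43.9 under DMSO and E2, the highest of any HOX start site, and its TAF1 was 54.5 and 35.01. SIN3A was 25.1 in stripped and 10.2 in full medium, LSD1 9.61 and 15.3, MAX 9.6 under DMSO alone, and JUN 9.59 and the library labelled H3K27me3 13.9 under E2 alone. No list of T-47D had a peak at its start site. HOXD8 had H3K4me3 at 23.4 and 23.1 and TAF1 at 43.6 and 34.5, and HOXD3 had 22.5 and 20.5 and 20.6 and 20.5, at an upstream start site. HOXD13, the limb gene at the 5′ end, had H3K4me3 at 17.8 and 29.1 and TAF1 at 7.31 and 7.52. HOXD1 was marked in both lines, at 21.8 and 25.2 in Ishikawa and 21.4 and 20.8 in T-47D. These values stood at percentiles 75.5 and 80.9 of the Ishikawa lists and 97.7 and 99.4 of the T-47D lists. TAF1 at HOXD1 was found in Ishikawa alone, at 18.6 and 13.7. HOXD11 had 22.5 and 18.4 in Ishikawa and 12.1 and 10.0 in T-47D. The strongest H3K4me3 peak of any cluster in Ishikawa under DMSO, 48.8 at chr2:177042391-177043637, lay at no member but in the noncoding genes HAGLR and HAGLROS, 10363 bp before HOXD1.

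**Figure D3:**
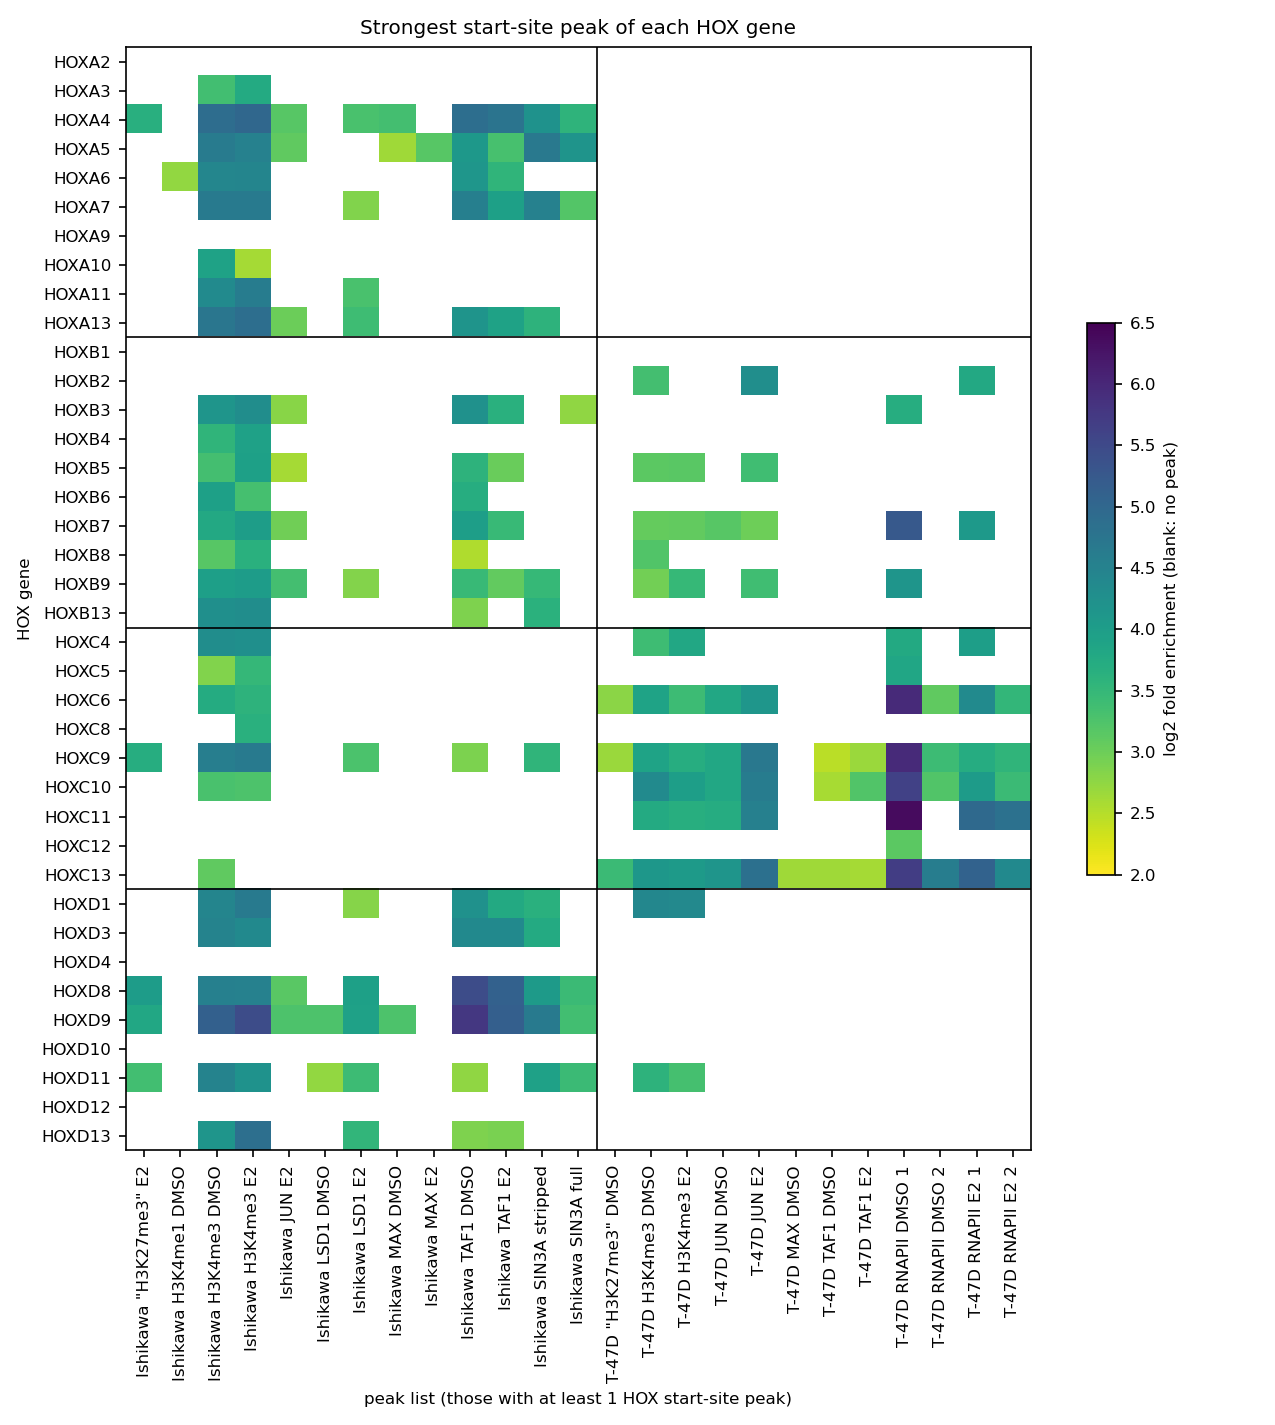
Log2 fold enrichment of the strongest start-site peak of each HOX gene (rows, by cluster, 1 member not shown) in the 25 lists that had at least 1 (columns, Ishikawa left and T-47D right, 1 library each, with the libraries labelled H3K27me3 in quotation marks). Blank means no peak. T-47D is blank over HOXA and nearly so over HOXD, and filled over HOXC.

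By the count of active genes the lines stood further apart. In Ishikawa 20 HOX genes had H3K4me3 and TAF1, 51.3% against 58.1% of all protein-coding genes, with 6 in HOXA, 7 in HOXB, 1 in HOXC and 6 in HOXD. In T-47D there were 3, HOXC9, HOXC10 and HOXC13, 7.69% against 22.3%. TAF1 itself lay at 20 and 15 HOX genes in Ishikawa under DMSO and E2, against 58.7% and 54.6% of all genes, and at 3 and 3 in T-47D, against 22.5% and 27.3%. The count in Ishikawa moved with list length. The T-47D TAF1 list held 4591 peaks and the Ishikawa list 19349, and with both shortened to 4591 the count was 3 in each line. The H3K4me3 lists under DMSO were of like length, 29597 and 30774 peaks.

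RNAPII, which marks genes being read, lay at 11 (replicate 1) and 4 (replicate 2) HOX genes of T-47D with DMSO, and at 8 and 5 with E2. Over all genes the shares were 63.0% and 45.4%, and 58.4% and 50.6%. The mean was 7.5 ± 4.95 (SD, n = 2) with DMSO and 6.5 ± 2.12 (SD, n = 2) with E2, a difference of -1.0 that did not pass an exact two-sided permutation test over the 4 libraries (p = 1.0, smallest possible 0.333). HOXC6, HOXC9, HOXC10 and HOXC13 had RNAPII in all 4 libraries, 10.3% of members against 44.6% of all genes. The same 4 genes had H3K4me3 and RNAPII in both DMSO libraries, against 44.1%. In DMSO replicate 1 the strongest RNAPII peak of HOXC6 and of HOXC9 was the same peak. HOXC6 was counted there through upstream start sites and not the canonical one. The replicates split by number and not by treatment, since both libraries numbered 1 had more HOX genes than both numbered 2. List length split the same way, with 39371 (DMSO) and 46282 (E2) peaks in replicate 1 and 21291 and 23433 in replicate 2.

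**Figure D4:**
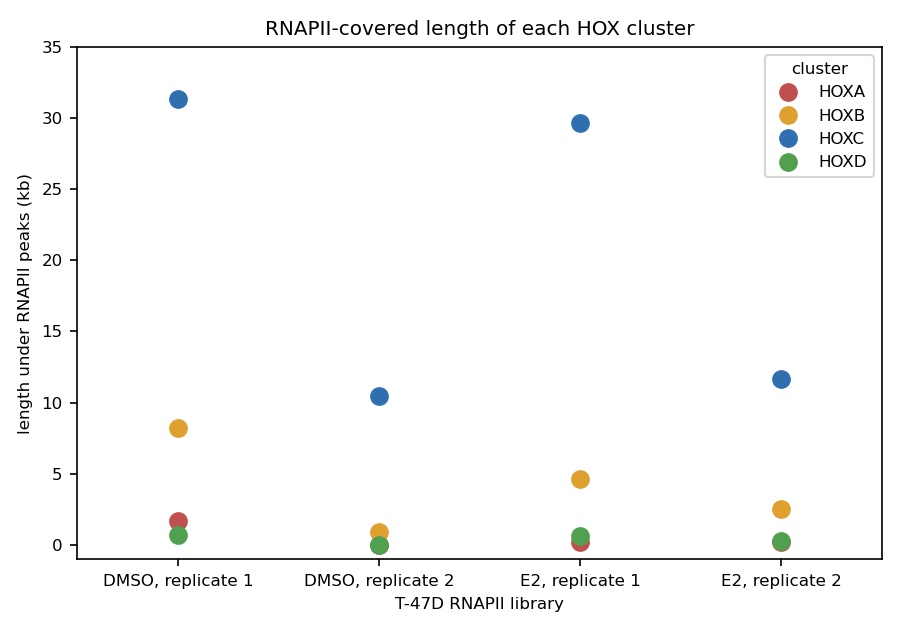
Length under RNAPII peaks in kb (vertical axis, linear) in each cluster, in the 4 T-47D RNAPII libraries (horizontal axis, 1 point per library and cluster, coloured by cluster, no mean drawn). HOXC holds between 10.5 and 31.3 kb in every library, and HOXA and HOXD at most 1.7 kb.

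The length under RNAPII peaks over the 4 clusters was 41.98 and 11.38 kb with DMSO (replicates 1 and 2) and 35.17 and 14.66 kb with E2. The means were 26.7 ± 21.6 and 24.9 ± 14.5 kb (SD, n = 2), a difference of -1.77 kb (exact two-sided permutation test, p = 1.0, smallest possible 0.333). HOXC held 31.3 and 10.5 kb with DMSO and 29.7 and 11.6 kb with E2, and HOXB 8.24, 0.9, 4.64 and 2.55 kb in the same order. HOXA held 1.7 kb or less and HOXD 0.72 kb or less in each library. RNAPII in a gene body was found at 19 and 7 HOX genes with DMSO, against 68.2% and 50.5% of all genes, and at 13 and 10 with E2, against 64.8% and 55.7%. H3K4me3 lay in the body of 30 HOX genes in DMSO-treated Ishikawa cells and 19 in T-47D, 76.9% and 48.7%, against 70.3% and 66.1%. In T-47D 7 of those 19 had no start-site peak (HOXA3, HOXA6, HOXA11, HOXB3, HOXB4, HOXB6 and HOXD3), and in Ishikawa HOXA9 and HOXC11 had none.

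E2 left H3K4me3 at most HOX genes in place. In Ishikawa 28 of 29 were marked under both treatments, HOXC8 gained a peak (1.17% of all genes did) and HOXC13 lost it (0.288%). In T-47D HOXB2 and HOXB8 lost it (4.01%) and none gained it. Of the 28 Ishikawa genes, 19 had a higher fold enrichment with E2, against 69.8% of all genes with a peak in both lists, and of the 11 in T-47D 7 had a lower one, against 81.8%. The whole lists moved the same way, so neither count is a result about HOX genes.

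JUN, the AP-1 subunit, lay at 0 HOX genes under DMSO and 9 under E2 in Ishikawa (HOXA4, HOXA5, HOXA13, HOXB3, HOXB5, HOXB7, HOXB9, HOXD8 and HOXD9), against 3.56% and 31.1% of all genes. A gain at 27.6% of all genes went with it, and with lists shortened to the same length there was no gain. In T-47D JUN lay at 6 and 9, against 56.3% and 59.2%, with HOXB7, HOXC6, HOXC9, HOXC10, HOXC11 and HOXC13 under both treatments. HOXB2, HOXB5 and HOXB9 gained it, 7.69% against 4.35% of all genes. JUN was thus at HOXB and HOXC genes in T-47D and at HOXA, HOXB and HOXD genes in Ishikawa. Each of them had H3K4me3 in the same line and treatment save HOXB2 in T-47D under E2. At 5 of the 6 shared T-47D genes its fold enrichment was higher with E2, against 90.6% of all. No HOX peak of JUN had an AP-1 site within 150 bases of its summit, 0 of 10 in Ishikawa under E2 and 0 of 8 and 0 of 12 in T-47D under DMSO and E2, and the shares over all start-site peaks of those lists were 4.95%, 2.8% and 2.49%.

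LSD1, which removes methyl groups from H3K4, lay at HOXD9 and HOXD11 under DMSO and at 11 HOX genes under E2 in Ishikawa, against 15.6% and 38.9% of all genes. Those gained were HOXA4, HOXA7, HOXA11, HOXA13, HOXB9, HOXC9, HOXD1, HOXD8 and HOXD13, 23.1% against 23.8%. With lists shortened to the same length the gain was 1. In T-47D the LSD1 lists held 42 and 442 peaks and reached no HOX gene, against 0.00496% and 0.0496%. The TAF1 start-site peak was lost with E2 in Ishikawa at HOXB6, HOXB8, HOXB13, HOXC9 and HOXD11, 12.8% against 4.24% of all genes. TAF1 peaks still lay in the bodies of HOXB6 and HOXB8 under E2. The E2 list was also the shorter one, with 16554 peaks against 19349 under DMSO. Under DMSO the 5 members that lost the start-site peak had a fold enrichment from 5.77 to 13.02. HOXB5, HOXB9 and HOXD13, which kept TAF1, lay in the same range, and the other members that kept it lay above. The fold enrichment of TAF1 fell at 14 of the 15 that kept it, against 93.7% of all genes, and HOXD13 was the exception.

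MAX lay at 3 and 1 HOX genes in Ishikawa under DMSO and E2, against 9.48% and 3.99%, and HOXA4 and HOXD9 lost it, 5.13% against 6.15%. In T-47D HOXC13 alone had it under DMSO, against 0.675%, and none under E2, against 6.84%, a loss seen at 0.174% of all genes. The HOXC13 peak had a fold enrichment of 6.23 and a width of 130 bp. MYC reached no HOX gene, against 0.00992% and 0.00992% in Ishikawa and 2.56% and 7.03% in T-47D. RARA, the receptor of retinoic acid, which is a known inducer of HOX genes, reached none either, against 0.670% and 8.39% in Ishikawa and 4.10% and 3.88% in T-47D, and no RARA peak lay in any of the 4 clusters.

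SIN3A lay at 13 HOX genes in stripped and 8 in full medium in Ishikawa, against 58.1% and 49.3% of all genes. HOXA13, HOXB9, HOXB13, HOXC9, HOXD1 and HOXD3 lost it in full medium, 15.4% against 9.04%, and HOXB3 gained it, 2.56% against 0.233%. At the 7 genes with SIN3A in both media (among them HOXA4, HOXA5, HOXA7, HOXD8, HOXD9 and HOXD11) the fold enrichment was lower in full medium at each, with a median ratio of 0.644. The share over all genes was 98.3% and the median ratio 0.526, so SIN3A was lower over the whole list. The T-47D lists held 75 and 649 peaks and reached no HOX gene, against 0.218% and 3.15%.

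The remaining marks were at few HOX start sites. H3K4me1, a mark of enhancers, lay at the start site of HOXA6 alone in Ishikawa under DMSO, against 5.85%, and was lost there with E2 (1.90% of all genes), where 4.94% of all genes had it. T-47D had it at no HOX start site, against 0.972% and 0.263%. H3K36me3, a mark of read gene bodies, lay at none in Ishikawa, against 0.0149%. The library labelled H3K27me3 had a start-site peak at 0 HOX genes under DMSO and 5 under E2 in Ishikawa (HOXA4, HOXC9, HOXD8, HOXD9 and HOXD11), against 2.20% and 24.4%, a gain seen at 22.7% of all genes. In T-47D it had HOXC6, HOXC9 and HOXC13 under DMSO, against 21.7%, and 0 under E2, against 0%, so that 21.7% of all genes lost it. Together with H3K4me3 it was found at 0 HOX genes in Ishikawa, against 2.17%, and at the same 3 in T-47D, against 21.5%. No gene had both in both lines under DMSO.

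**Figure D5:**
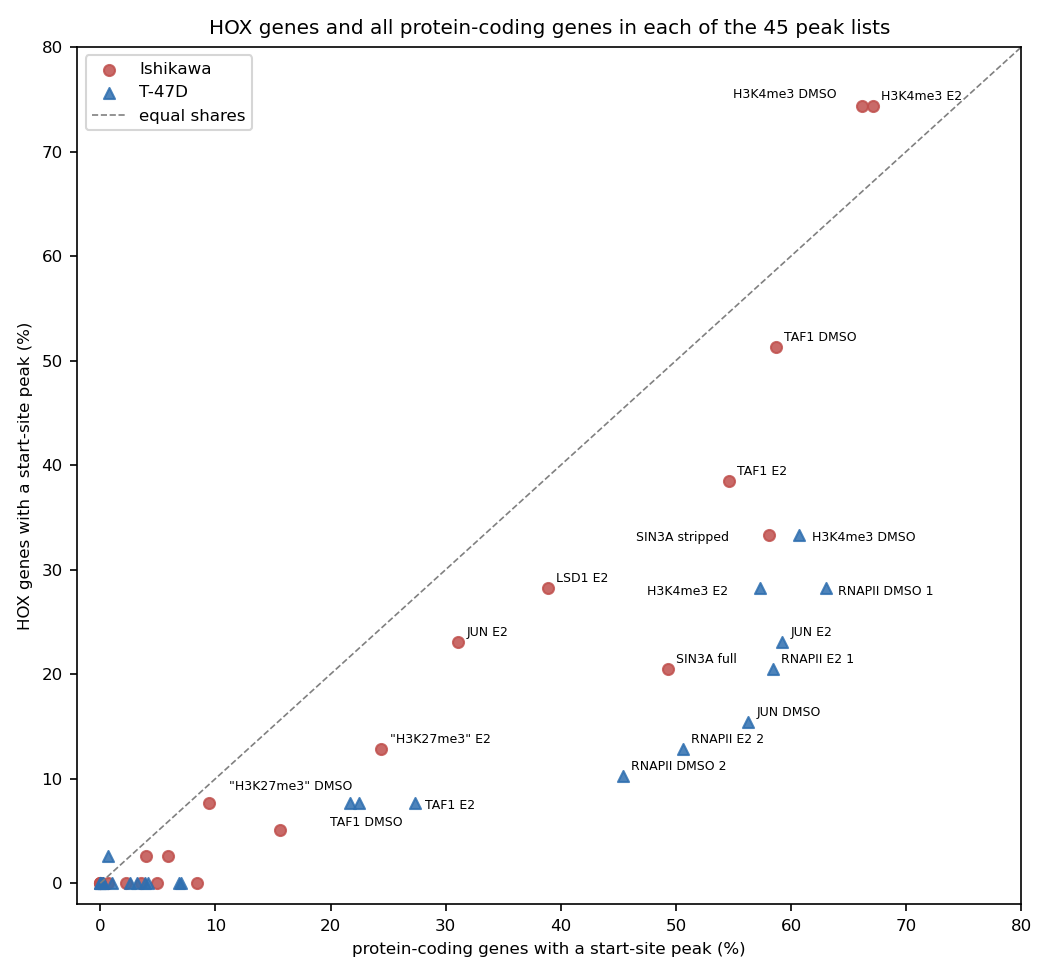
Share of HOX genes with a start-site peak (vertical axis, %) against that of all protein-coding genes (horizontal axis, %) in each of the 45 lists, 1 point per library, red circles for Ishikawa and blue triangles for T-47D, with the dashed line at equal shares. The points of T-47D lie under the line in all its longer lists, and H3K4me3 of Ishikawa, at 74.4%, lies above it. The other targets of Ishikawa lie under the line too.

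The genes around the pathway were read in the same way, from lists of known genes. Of 9 TALE cofactors, the PBX, MEIS and PKNOX proteins with which HOX proteins bind DNA, the same 7 had H3K4me3 at a start site in both lines under DMSO, among them MEIS1 and MEIS2. Of 23 Polycomb genes, 23 had it in both lines, and of 11 genes of the trithorax side, which hold the H3K4 methyltransferases with their partners and a pair of H3K27 demethylases, 11 had it in Ishikawa and 9 in T-47D. Of 6 caudal and ParaHox genes, the close relatives outside the clusters, 3 had it in Ishikawa (CDX2, GSX2 and PDX1) and 0 in T-47D. Of 8 genes that flank the clusters, the same 6 had it in both lines, and SKAP2, the neighbour of HOXA, was among them. Of 16 noncoding genes of the clusters, 12 had it in Ishikawa, among them HOTTIP and HOTAIRM1 of HOXA. In T-47D 7 had it, of which 5 lie in HOXC, and the others were HOXA11-AS and HOXB-AS1. HOTAIR had H3K4me3 in both lines and TAF1 in T-47D under DMSO.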

How the data were processed

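Peak lists were read for 45 of 49 samples. Per the submitters' processing notes, reads were aligned with Bowtie 1.1.2 and peaks called with MACS2 2.1.0.20140616, and the coordinates are hg19. The authors deposited, for each peak, a score, a fold enrichment over background, a −log10 p-value and a −log10 q-value, and no read counts, so depth was unknown. Peaks were called per library. The smallest −log10 p was 10.0 in any list.

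GENCODE release 44 gene models mapped to GRCh37 gave the start sites. A gene had a peak when 1 bp of it overlapped 250 bp on either side of a start site of a protein-coding transcript, and its value was the largest fold enrichment there. Shares were set beside those of all 20163 protein-coding genes. Python 3.11.15, numpy 2.4.6, pandas 2.3.3 and matplotlib 3.10.9 were used, and the overlap code was tested on simulated peaks. RNAPII was compared over its 4 libraries by an exact two-sided permutation test. Named genes were those marked in 1 line under both treatments, those active in both lines, those with most E2 or medium changes, and for each cluster the members in the most and in no or fewest lists. Other genes are named as members of the counts given. The members and the gene lists were chosen with earlier results of these data known. Sequences came from the GRCh37 genome. Alternatives were a wider window, the canonical start site alone, a fold enrichment of at least 10, a −log10 q of at least 20, the summit in the window and lists of equal length. Some genes and a sequence are included in counts and not reported by name here.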

Additional observations from a re-analysis of the deposited data

Results flagged for a closer look

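The number of HOX genes with a start-site peak in the libraries labelled H3K27me3 changed in opposite directions with E2, by +5 in Ishikawa (0 to 5) and by -3 in T-47D (3 to 0), so that the changes differed by 8 genes. The difference was not tested, since each group was 1 library. The share of all protein-coding genes moved the same ways, from 2.20% to 24.4% in Ishikawa and from 21.7% to 0% in T-47D, where the list under E2 held 107 peaks.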

How the results depend on the processing

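Of 309 alternative values, 244 kept their direction or lay within 1.5 times the reported count, 56 moved and 9 reversed. With the summit inside the window, HOX genes with H3K4me3 under DMSO numbered 17 in Ishikawa and 6 in T-47D, and active genes 7 and 1. With a window of 1000 bp, active genes in T-47D numbered 6, and the genes with the mark labelled H3K27me3 there numbered 5, alone or with H3K4me3. Both of these counts were 1 with the canonical start site alone, a fold enrichment of at least 10, a −log10 q of at least 20 or equal list lengths, and the count with H3K4me3 also with the summit. Active genes were 0 in T-47D at a fold enrichment of at least 10 and 3 in Ishikawa at equal list lengths. H3K4me3 in T-47D alone was found at 4 genes with either the fold or the q limit. SIN3A in full medium was left at 2 genes with the q limit. Pairs of gene and target gained with E2 in Ishikawa, 24 as reported, were 14 with the fold limit and 7 at equal lengths, and those lost, 9 as reported, were 3 with the q limit and 4 at equal lengths. In T-47D the 6 lost were 3 with the canonical start site, the fold limit or equal lengths. H3K4me3 then covered 2.98% of HOXC in Ishikawa with the fold limit, and 0.0% and 0.67% of HOXA in T-47D with the fold and the q limit.

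The RNAPII difference in HOX genes, -1.0, became 0.5 with the fold limit or the summit. Leaving out 1 library at a time it ranged from -4.5 to 2.5, and was above 0 without DMSO replicate 1 (2.5) and without E2 replicate 2 (0.5). The covered length, -1.77 kb, ranged from -17.07 to 13.53, and was above 0 without the same libraries (13.53 and 8.49 kb). A lone library was then set against a pair, with no exact test able to pass. With a replicate block the values were -1.0 and -1.77 kb (exact sign test, p = 1.0 for both). The replicate numbers were shared by only 2 pairs, and the difference between replicates 1 and 2 correlated at 0.27 across 8988 genes, which are not independent replicates. Among single targets, MAX in Ishikawa turned to a gain of 1 with the q limit, H3K4me3 in T-47D to a gain of 1 and JUN in T-47D to a change of -1 with the summit. The causes were not tested.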
